A study of Mus musculus with 18 samples.

Results

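The genes described here are 10 transcripts that mark T cells and natural killer (NK) cells: the CD3 chains Cd3e, Cd3g and Cd3d, the coreceptors Cd4, Cd8a and Cd8b1, the adhesion receptor Cd2, and the effector and NK genes Ccl5, Nkg7 and Klrd1. They were taken as the rows whose Ensembl identifiers map to these symbols, and all 10 were found among 23474 rows. RNA was sequenced from epididymal adipose tissue and liver of male C57BL/6J mice aged 17 weeks, fed for 12 weeks from the age of 5 weeks. The GT diet was the high-fat diet with 0.25% green tea ethanol extract by weight, HFD was the high-fat diet alone, and ND was the normal diet. There were 10 mice on each diet and 3 libraries for each diet in each tissue, 18 in all. Nothing in the labels ties a library to its own mouse, so p-values measure the spread between these libraries, which may be partly technical.

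T cells recognise antigen through a receptor whose variable chains signal only together with the CD3 chains. CD4 or CD8 binds the MHC molecule beside the antigen and sorts T cells into helper and cytotoxic kinds. NK cells carry no CD3 receptor at their surface and use receptors such as the CD94 protein made from Klrd1. In mouse epididymal fat, resident lymphocytes lie among adipocytes and macrophages, and a high-fat diet is known for raising macrophage numbers there. In mouse liver, NK cells and T cells lie in the sinusoids, beside Kupffer cells.

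The values are FPKM, read fragments scaled by transcript length and by the number mapped, as the authors deposited them. Read numbers were not analysed here, so the depth of each library is unknown. Summed over all rows, FPKM lay between 680168 and 930139 in liver libraries, at 1002765 in adipose ND 1 and between 527904 and 608819 in the remaining 8 adipose libraries. Adipose ND 1 stood apart: its 10 testis markers summed to 99270.3 FPKM, against 2091 in HFD 1 and 3049 in ND 3, and the remaining 6 adipose libraries did not exceed 168.5. Adiponectin (Adipoq), the defining adipocyte gene, was at 202.0 FPKM in ND 1, and its range over the remaining 8 was 907.9 to 2781 FPKM. Muscle markers reached 89.8 FPKM in liver HFD 2, 42.9 in liver GT 3 and 18.5 in liver HFD 3, and did not exceed 3.36 in the remaining 6. Albumin (Alb) stood between 21156 and 28177 FPKM in 8 liver libraries and was listed at 0 in liver HFD 3, so a listed 0 can be a failed estimate. Adipose results are therefore given with and without ND 1.

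Levels were low. In all 18 libraries Cd8a stayed under 1 FPKM, and among the 9 adipose libraries it was also the member that never reached 1 FPKM. Without ND 1, Cd3e, Cd8a and Cd8b1 stayed under 1 FPKM in every adipose library. In liver, 6 members stayed under 1 FPKM in every library: Cd3e, Cd3d, Cd8a, Cd8b1, Cd2 and Nkg7. A gene was tested when 3 libraries of the fit reached 1 FPKM. This admitted Cd3g, Cd2, Ccl5, Nkg7 and Klrd1 in adipose tissue, the same genes other than Cd3g when ND 1 was left out, and Ccl5 alone in liver. Since a gene can pass such a filter through a single diet, the members that passed are not a fair sample of the 10. Differences are log2 ratios of FPKM + 1 with their standard error from limma, and the added 1 understates the change of genes at these levels. A gene was called at a Benjamini-Hochberg adjusted p under 0.05 over all genes of the fit.

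**Figure D1:**
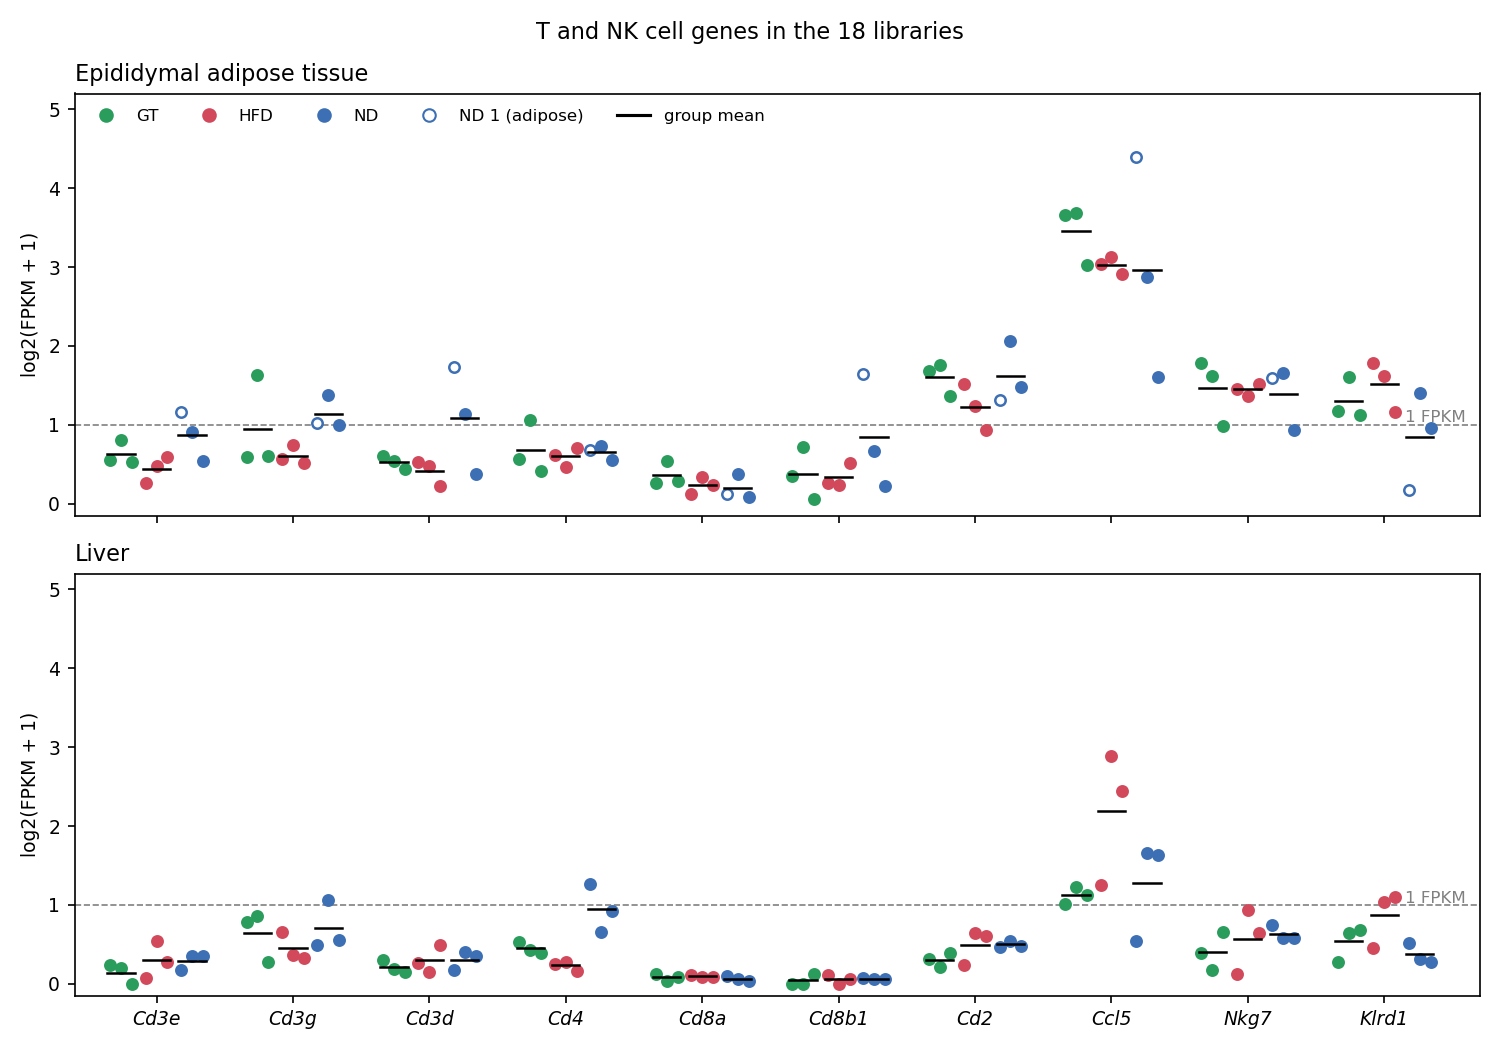
Level of each of the 10 genes in each library, as log2(FPKM + 1), with adipose tissue above and liver below; points are libraries, bars are group means, the open circle is adipose ND 1 and the dashed line is 1 FPKM. Ccl5 has the highest mean of the 10 genes in each group, and Cd8a lies under the line in all 18 libraries.

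The CD3 chains Cd3g, Cd3d and Cd3e (ENSMUSG00000002033, ENSMUSG00000032094 and ENSMUSG00000032093) are neighbours on chromosome 9. In RefSeq's order of protein-coding genes on GRCm38.p6, Cd3d lies directly between Cd3g and Cd3e. Because these neighbours were not at the same level in the same libraries, the 250 bases before the RefSeq start of each are shown, 5′ to 3′ on the strand of the gene, at chr9:44980432-44980681 (minus strand) for Cd3g, chr9:44981536-44981785 (plus strand) for Cd3d and chr9:45009612-45009861 (minus strand) for Cd3e. Capitals mark every match, on either strand, to the letters of a motif of factors known in T and NK cells: TGTGGT for RUNX, AGGAAG for ETS, AGATAA for GATA and AGGTGTGA for T-box factors.
Cd3g: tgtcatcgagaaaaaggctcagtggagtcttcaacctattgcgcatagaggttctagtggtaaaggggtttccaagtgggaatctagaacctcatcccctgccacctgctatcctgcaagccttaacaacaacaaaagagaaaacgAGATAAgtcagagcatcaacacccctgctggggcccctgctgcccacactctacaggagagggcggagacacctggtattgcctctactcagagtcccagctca
Cd3d: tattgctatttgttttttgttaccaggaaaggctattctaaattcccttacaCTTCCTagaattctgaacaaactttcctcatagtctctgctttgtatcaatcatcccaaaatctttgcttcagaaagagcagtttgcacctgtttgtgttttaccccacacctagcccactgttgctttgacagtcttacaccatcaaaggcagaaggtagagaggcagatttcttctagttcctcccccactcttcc
Cd3e: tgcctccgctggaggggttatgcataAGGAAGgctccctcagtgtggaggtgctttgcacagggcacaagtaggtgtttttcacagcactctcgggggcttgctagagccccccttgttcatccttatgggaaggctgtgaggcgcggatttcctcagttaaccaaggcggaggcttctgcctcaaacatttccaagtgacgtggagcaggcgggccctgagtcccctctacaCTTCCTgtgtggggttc
The Cd3g stretch held AGATAA at positions -104 to -99 from its start. The Cd3d stretch held the ETS letters on the opposite strand at positions -198 to -193 from its start, and the Cd3e stretch held them at -224 to -219 and, on the opposite strand, at -17 to -12. Of 32851 RefSeq promoters searched over the same 250 bases, 29.5% held the ETS letters and 9.99% the GATA letters, and a match describes the sequence alone. No match overlapped another.

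Cd3g, the gamma chain, was the CD3 chain of highest median in adipose tissue, at 0.682 FPKM over 9 libraries. It stood at 0.508, 2.09 and 0.517 FPKM in GT libraries 1 to 3, at 0.478, 0.682 and 0.429 FPKM in HFD libraries, and at 1.03, 1.60 and 0.990 FPKM in ND libraries. Every HFD library lay under every ND library, while GT 2 lay above all others and GT 1 and GT 3 lay within the HFD range. Cd3g was the 1 member of 10 whose HFD and ND libraries did not overlap with HFD lower, as in 5.84% of the 20611 genes above 0 in adipose tissue, and no member had HFD higher without overlap, against 15.9% of genes. Without ND 1 it was again Cd3g, against 16.6% of genes. Its difference did not pass the test for HFD against ND (log2 difference -0.52 ± 0.33, SE; adjusted p = 0.348, limma) or for GT against HFD (0.33 ± 0.33, adjusted p = 1). In liver Cd3g reached 1 FPKM in ND 2 alone, with 0.715, 0.816 and 0.213 FPKM in GT, 0.570, 0.290 and 0.257 FPKM in HFD, and 0.407, 1.08 and 0.471 FPKM in ND libraries, so the diets overlapped.

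Cd3e encodes the epsilon chain, which every CD3 complex holds. In adipose tissue it was at 0.470, 0.747 and 0.448 FPKM in GT, at 0.197, 0.395 and 0.509 FPKM in HFD and at 1.24, 0.882 and 0.449 FPKM in ND libraries. The highest value belonged to ND 1, and the diets overlapped. In liver it was at 0.177, 0.145 and 0 FPKM in GT, 0.0508, 0.457 and 0.210 FPKM in HFD, and 0.126, 0.276 and 0.278 FPKM in ND libraries, again with overlap. The 0 in GT 3 may be a failed estimate. Cd3d, the delta chain, was at 0.515, 0.456 and 0.354 FPKM in adipose GT, 0.446, 0.396 and 0.171 FPKM in adipose HFD, and 2.34, 1.19 and 0.303 FPKM in adipose ND libraries. The ND libraries alone spread widely, with ND 1 highest, ND 2 next and ND 3 among the GT and HFD libraries. In liver Cd3d ran from 0.109 to 0.401 FPKM, and the diets overlapped.

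The 3 CD3 chains together summed to 1.49, 3.30 and 1.32 FPKM in adipose GT libraries, 1.12, 1.47 and 1.11 FPKM in HFD libraries and 4.60, 3.68 and 1.74 FPKM in ND libraries. The sums of HFD libraries lay under those of all ND libraries, and those of GT libraries overlapped both. The pan-leukocyte gene Ptprc (CD45) ran the other way, at 47.1, 38.1 and 21.5 FPKM in GT, 59.9, 65.8 and 69.3 FPKM in HFD, and 0.549, 13.4 and 9.25 FPKM in ND libraries. Per 100 FPKM of Ptprc the CD3 sum was therefore 3.17, 8.64 and 6.13 in GT, 1.87, 2.24 and 1.60 in HFD, and 27.4 and 18.8 in ND 2 and ND 3. In ND 1 that ratio was 838.6, and Cd3e, Cd3d, Cd8b1 and Ccl5 had their highest values of the 9 adipose libraries there. The part of the testis RNA in these values was not tested. The ratio carries the difference in Ptprc, which macrophages also express and which was called in HFD against ND (2.44 ± 0.30 without ND 1, adjusted p = 0.00153, limma), while no CD3 chain was called. In bulk tissue, a different number of cells of a type and a different amount of RNA per cell cannot be told apart, for T cells and for the other cells that express Ptprc.

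**Figure D2:**
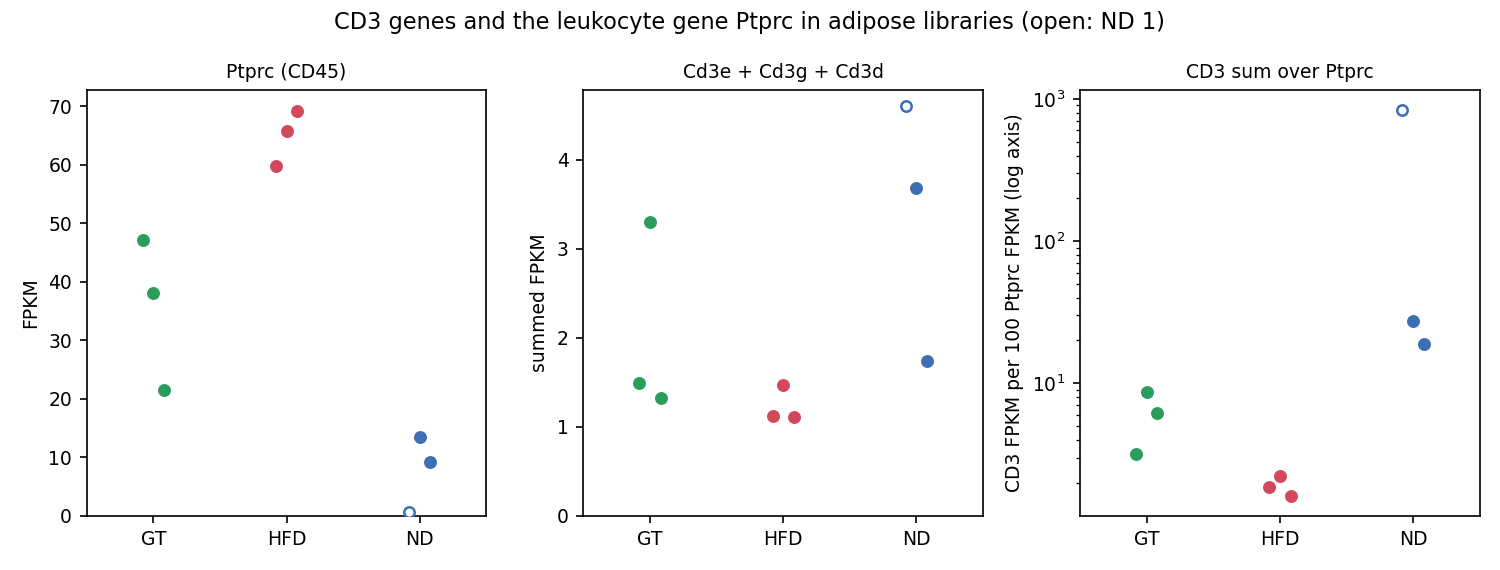
Ptprc in FPKM, the summed FPKM of Cd3e, Cd3g and Cd3d, and that sum per 100 FPKM of Ptprc on a log axis, in the 3 adipose libraries of each diet; points are libraries and the open circle is ND 1. HFD libraries have the highest Ptprc and the lowest ratio, between 1.60 and 2.24, and ND 2 and ND 3 stand at 27.4 and 18.8.

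The coreceptor Cd4 (ENSMUSG00000023274), which binds MHC class II molecules, was at 0.484, 1.09 and 0.332 FPKM in adipose GT, 0.540, 0.383 and 0.638 FPKM in adipose HFD and 0.609, 0.664 and 0.466 FPKM in adipose ND libraries. All 3 diets overlapped, and GT 2 was the highest library. Cd8a and Cd8b1 (ENSMUSG00000053977 and ENSMUSG00000053044), neighbours on chromosome 6, encode the alpha and beta chains of CD8, which binds MHC class I molecules. Cd8a ran from 0.202 to 0.458 FPKM in adipose GT, from 0.0936 to 0.268 FPKM in adipose HFD and from 0.06 to 0.298 FPKM in adipose ND libraries. Cd8b1 ran from 0.0430 to 0.645 FPKM in GT, from 0.177 to 0.424 FPKM in HFD and from 0.170 to 2.13 FPKM in ND libraries, where 2.13 FPKM was ND 1 and 0.584 FPKM the next value. In liver Cd8a ran from 0.0212 to 0.0875 FPKM, and Cd8b1 was listed at 0 in GT 1, GT 2 and HFD 2 and reached at most 0.0947 FPKM.

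Cd2 (ENSMUSG00000027863) encodes an adhesion receptor of T and NK cells. In adipose tissue it was at 2.22, 2.37 and 1.58 FPKM in GT, 1.87, 1.36 and 0.912 FPKM in HFD and 1.49, 3.18 and 1.78 FPKM in ND libraries, and the diets overlapped. For HFD against ND the log2 difference was -0.39 ± 0.29 (adjusted p = 0.428, limma), and without ND 1 it was -0.54 ± 0.26 (adjusted p = 0.161). Leaving out the 3 adipose libraries with most testis RNA (ND 1, ND 3 and HFD 1), which leaves ND 2 alone for its diet, gave -0.98 ± 0.25 with an adjusted p of 0.0313, on the assumption that the lone library varies like the others. For GT against HFD the difference was 0.37 ± 0.29 (adjusted p = 1; 0.381 without ND 1). In liver Cd2 was at 0.241, 0.159 and 0.316 FPKM in GT, 0.184, 0.562 and 0.516 FPKM in HFD, and 0.388, 0.458 and 0.399 FPKM in ND libraries, so all GT libraries lay under all ND libraries. Without a filter the liver difference for GT against ND was -0.19 ± 0.11 (adjusted p = 0.489).

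Ccl5 (ENSMUSG00000035042) encodes a chemokine, RANTES, that effector T cells and NK cells secrete. It had the highest level of the 10 genes in both tissues, with a median of 7.25 FPKM over 9 adipose libraries and of 1.38 FPKM over 9 liver libraries. In adipose tissue it was at 11.6, 11.9 and 7.17 FPKM in GT, 7.25, 7.76 and 6.53 FPKM in HFD and 20.1, 6.35 and 2.04 FPKM in ND libraries. ND 1 was the highest and ND 3 the lowest of all 9 adipose libraries. With ND 1 the difference for HFD against ND was 0.07 ± 0.62 (95% interval -1.36 to 1.49; adjusted p = 0.949). Without ND 1, every GT and every HFD library lay above ND 2 and ND 3, as in 15% and 22% of 19912 genes. The difference was then 1.22 ± 0.36 for GT against ND (95% interval 0.39 to 2.05; unadjusted p = 0.00954, adjusted p = 0.0679) and 0.79 ± 0.36 for HFD against ND (-0.04 to 1.62; adjusted p = 0.143), and neither was called. These contrasts share the ND libraries, and leaving out ND 2 as well, so that ND 3 alone stood for its diet, made both called, at 1.85 (adjusted p = 0.00836) and 1.42 (adjusted p = 0.00975), on the assumption that the lone library varies like the others. Leaving out ND 3 in place of ND 2 beside ND 1, so that ND 2 stood alone, gave 0.58 (adjusted p = 0.19) and 0.15 (adjusted p = 0.699), and neither was called. Leaving out ND 3 alone turned the differences to -0.18 and -0.61, so the Ccl5 comparison with ND rested on which ND libraries were used. Leaving out ND 1 and GT 3 also made the GT difference called, at 1.43 ± 0.37 (adjusted p = 0.0471). For GT against HFD, which ND 1 enters through the spread alone, Ccl5 differed by 0.43 ± 0.62 (adjusted p = 1; 0.43 ± 0.32 and 0.465 without ND 1).

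Nkg7 and Klrd1 stand for cytotoxic cells. Nkg7 (ENSMUSG00000004612) encodes a membrane protein of cytotoxic granules. It was the only member whose 250 bases held letters of 3 of the 4 motifs, shown on the plus strand of chr7:43436888-43437137 (GRCm38.p6, RefSeq).
Nkg7: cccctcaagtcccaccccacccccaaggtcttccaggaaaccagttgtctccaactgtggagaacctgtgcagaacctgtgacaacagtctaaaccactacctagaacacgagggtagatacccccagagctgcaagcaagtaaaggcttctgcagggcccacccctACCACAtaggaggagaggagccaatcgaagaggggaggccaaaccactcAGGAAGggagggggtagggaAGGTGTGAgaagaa
The stretch held the RUNX letters on the opposite strand at positions -83 to -78 from the start, the ETS letters at -34 to -29 and the T-box letters at -14 to -7. RUNX letters were found in 14.0% and T-box letters in 1.12% of the 32851 promoters. The Cd8a stretch held none of the 4 motifs, and for Cd4, Cd8b1, Cd2, Ccl5 and Klrd1 no stretch was searched.

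In adipose tissue Nkg7 was at 2.45, 2.06 and 0.986 FPKM in GT, 1.75, 1.58 and 1.87 FPKM in HFD and 2.02, 2.14 and 0.903 FPKM in ND libraries. HFD libraries lay within the range of both other diets, with a mean of 1.73 ± 0.142 FPKM against 1.69 ± 0.684 FPKM in ND (SD, n = 3). The differences were 0.06 ± 0.31 for HFD against ND (95% interval -0.66 to 0.77; adjusted p = 0.916) and 0.02 ± 0.31 for GT against HFD (-0.70 to 0.73; adjusted p = 1). Klrd1 (ENSMUSG00000030165), which lies between Klre1 and Klrk1 on chromosome 6, was at 1.27, 2.05 and 1.18 FPKM in GT, 2.46, 2.06 and 1.23 FPKM in HFD and 0.131, 1.65 and 0.943 FPKM in ND libraries. The lowest value was ND 1, the library in which several T cell genes were highest, and the diets overlapped. The difference for HFD against ND was 0.67 ± 0.36 (adjusted p = 0.299), and 0.34 ± 0.26 without ND 1 (adjusted p = 0.38).

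Over the diet comparisons in adipose tissue, none of the 5 tested members was called. limma called 5.65% of 13762 genes for HFD against ND, 0% for GT against HFD, where 467 genes had an unadjusted p under 0.05, and 0.639% for GT against ND. With the replicate number as a block, GT against ND had 3 genes called higher and 0 lower, against 84 and 4 without the block, and 0 of the 5 members in either fit. No tested member had an unadjusted p under 0.05 in any of the 3 comparisons, that is 0 of 5 in each. Without ND 1, 27.4%, 1.7% and 10.7% of 12859 genes were called for the same comparisons, again with none of the 4 tested members; Ccl5 for GT against ND was the member with an unadjusted p under 0.05. With no filter, limma called 0 of 10 members in each comparison, with 0 at an unadjusted p under 0.05, where 3.16%, 0% and 0.107% of 20611 genes were called. Without ND 1 and with no filter it called 0 of 10 again, with Ccl5 for GT against ND alone at an unadjusted p under 0.05, where 15.4%, 0.0151% and 4.24% of 19912 genes were called. With ND 1 and no filter, the median log2 difference of all 10 members was -0.22 for HFD against ND, against -0.04 for all genes. For GT against HFD it was 0.12, against -0.07 for all genes. Cd3e, Cd3d, Cd8b1 and Ccl5, highest in ND 1, differed in that fit by -0.43, -0.67, -0.51 and 0.07 for HFD against ND. Without ND 1 they differed by -0.28, -0.34, -0.11 and 0.79, and the other members moved in both directions. No member had GT libraries that all lay above or all below the HFD libraries, against 8.38% and 18.9% of genes, or above or below the ND libraries, against 11.2% and 14.1%. The comparisons share their HFD and ND libraries, so their values are not independent of one another.

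**Figure D3:**
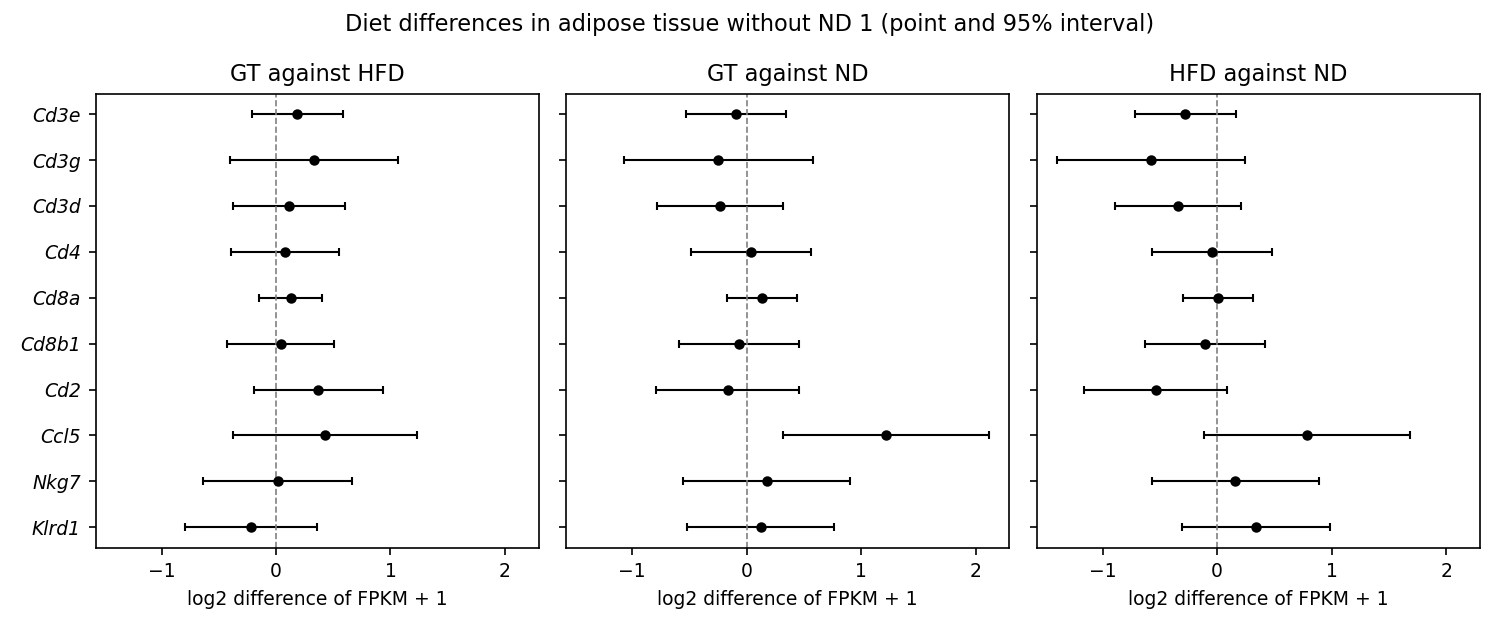
Log2 difference of FPKM + 1 (x axis) for each of the 10 genes in adipose tissue in the fit without ND 1 and without a filter, for GT against HFD, GT against ND and HFD against ND; points are estimates and bars are 95% intervals. The intervals include 0 except that of Ccl5 for GT against ND, whose adjusted p in this fit is 0.128.

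Among adipose GT libraries, and between ND 2 and ND 3, most members differed in the same direction, which did not hold among HFD libraries. GT 2 had the highest value of the 3 adipose GT libraries for 8 of 10 members, the others being Cd3d and Nkg7, highest in GT 1. ND 2 lay above ND 3 for all 10 members. The share of all genes ordered in these ways is not given here, so the counts do not set the members apart from other genes. Among HFD libraries the highest value was divided among all 3, with 3, 3 and 4 members. Ptprc was not highest in GT 2, at 38.1 FPKM against 47.1 FPKM in GT 1, and the macrophage gene Adgre1 (F4/80) was at 124.6 FPKM in GT 2 and 136.0 FPKM in GT 1.

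The other genes of T cells in adipose tissue differed in what they showed. Of 27 genes listed for the T cell receptor complex and its signalling, 14 were tested and 2 rose in HFD against ND, where 5.65% of all tested genes were called. Il7r, the interleukin-7 receptor of resting T cells and some innate cells, was at 30.7, 21.6 and 9.91 FPKM in GT, 41.1, 41.9 and 54.0 FPKM in HFD and 0.0515, 0.632 and 0.926 FPKM in ND libraries, without overlap between any pair of diets. Its difference was 4.96 ± 0.42 for HFD against ND (adjusted p = 0.0031) and 3.74 ± 0.42 for GT against ND (adjusted p = 0.0176). Lcp2, the adaptor SLP-76 that myeloid cells also use, rose by 1.5 ± 0.33 (adjusted p = 0.0367). Without ND 1, where 27.4% of all tested genes were called, 5 of 12 rose, adding Thy1 (0.88 ± 0.18, adjusted p = 0.00848), Lat (1.27 ± 0.25, adjusted p = 0.00829) and Fyb (2.36 ± 0.34, adjusted p = 0.00241). The zeta chain Cd247 and the kinase Lck act directly at the receptor. With ND 1 they differed by -0.36 ± 0.27 and -0.38 ± 0.26 (adjusted p = 0.428 and 0.381, limma). Without ND 1 the values were -0.13 ± 0.18 and -0.34 ± 0.24 (adjusted p = 0.628 and 0.328, limma). Of the remaining receptor genes in that fit, none called, Cd27 and Trbc2 differed by -0.73 and -0.84, and Trac, Cd6 and Il2rb by 0.87, 0.34 and 0.17. For GT against ND without ND 1, where 10.7% of genes were called, Il7r and Lcp2 rose. So did Cd6 (0.81 ± 0.20, adjusted p = 0.0366, limma) and Thy1 (0.71 ± 0.18, adjusted p = 0.0424, limma), and none was called lower. Cd247 was at 2.80, 3.37 and 3.35 FPKM in GT, 2.39, 2.38 and 2.63 FPKM in HFD and 5.11, 3.41 and 2.26 FPKM in ND libraries, with ND 1 again highest.

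Of 25 genes listed for cytotoxic and NK cells, 24 matched a symbol, 6 were tested and none was called by limma in adipose tissue for any diet comparison, with or without ND 1. At an unadjusted p under 0.05 there were 0 for HFD against ND, 0 for GT against HFD and 1 for GT against ND, and without ND 1 there were 0, 0 and 2. Granzyme A (Gzma), a killing protease, was at 3.03, 2.14 and 2.23 FPKM in GT, 1.02, 2.05 and 1.64 FPKM in HFD and 0.226, 1.53 and 0.713 FPKM in ND libraries. All GT libraries lay above all HFD and all ND libraries, with a difference of 0.44 ± 0.33 for GT against HFD (adjusted p = 1) and 0.98 ± 0.33 for GT against ND (adjusted p = 0.221). Ncr1, the NK receptor NKp46, had a difference of 0.52 ± 0.26 for HFD against ND (adjusted p = 0.276). Perforin (Prf1) and granzyme B (Gzmb) stayed under 1 FPKM in every library, and Klrb1c (NK1.1) was at 18.3 FPKM in ND 1 and at most 1.18 FPKM elsewhere. The regulatory T cell factor Foxp3 reached at most 0.294 FPKM. Of 11 genes listed for regulatory T cells, 2 were tested and limma called 0 in HFD against ND, with both at an unadjusted p under 0.05; without ND 1, Il1rl1 (the IL-33 receptor) rose by 0.92 ± 0.17 (adjusted p = 0.00538).

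Of 12 genes listed for T cell chemokines and their receptors, 11 were tested and 2 rose in HFD against ND, among them the chemokine Cxcl16, by 1.33 ± 0.26 (adjusted p = 0.0225). Without ND 1, Cxcl9, which draws activated T cells, fell by 0.83 ± 0.18 on the log2 scale (adjusted p = 0.0123), with 9.48, 11.2 and 10.2 FPKM in HFD against 23.5 and 15.4 FPKM in ND 2 and ND 3. The receptor Cxcr6 was at 1.02, 1.73 and 1.21 FPKM in GT, 0.627, 0.977 and 0.681 FPKM in HFD, and 0.107, 2.23 and 0.735 FPKM in ND libraries.

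Pan-leukocyte and macrophage markers were higher in HFD libraries, while most tested B cell and dendritic cell markers were not called. Of 6 pan-leukocyte genes 5 rose in HFD against ND, and of 11 macrophage genes 8 rose, 6 and 10 without ND 1, where 5.65% of all genes were called with ND 1 and 27.4% without it. The 11 macrophage genes summed to between 1278 and 2901 FPKM in GT, between 3130 and 4413 FPKM in HFD and between 68.6 and 586 FPKM in ND libraries. Ptprc rose by 3.43 ± 0.77 (adjusted p = 0.0415 with ND 1) and Adgre1 by 4.87 ± 0.85 (adjusted p = 0.0164; 3.78 ± 0.34 and 0.00105 without ND 1). Of 14 B cell and plasma cell genes 8 were tested and Cd22 rose; without ND 1, Cd22 and Ighm rose among 7 tested, and Ms4a1 (CD20) was listed at 0 in all 18 libraries. Of 8 dendritic cell genes 5 were tested and Itgax (CD11c), which macrophages also carry, rose by 5.33 ± 0.54 (adjusted p = 0.00436). Without ND 1 Itgax rose again, and Zbtb46, a transcription factor of classical dendritic cells, fell by 0.56 ± 0.17 on the log2 scale (adjusted p = 0.0453). The part of these and other cells in the values of Il7r, Lcp2, Thy1, Lat, Fyb and Ccl5 was not tested.

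In liver, Ccl5 was the member tested, and Cd4, Klrd1 and Nkg7 are described beside it. Ccl5 was at 1.02, 1.34 and 1.19 FPKM in GT, 1.38, 6.40 and 4.45 FPKM in HFD and 0.456, 2.16 and 2.1 FPKM in ND libraries. All GT libraries lay under all HFD libraries, as in 15.4% of the 17276 genes above 0 in liver, and HFD 1 lay among the ND libraries. The difference was 0.92 ± 0.39 for HFD against ND (95% interval 0.06 to 1.77; unadjusted p = 0.0382, adjusted p = 0.12) and -1.07 ± 0.39 for GT against HFD (-1.93 to -0.22; unadjusted p = 0.0187, adjusted p = 0.13), and neither was called; limma called 18.6% and 5.36% of 10670 genes for these comparisons. For GT against ND, where 2.6% of genes were called, it was -0.16 ± 0.39 (adjusted p = 0.869). Without HFD 1 both were called, at 1.39 (adjusted p = 0.0198) and -1.54 (adjusted p = 0.0277). Without HFD 2 and GT 3, the libraries with most muscle RNA, they were 0.57 ± 0.44 (adjusted p = 0.397) and -0.73 ± 0.48 (adjusted p = 0.399). HFD 2, which held most muscle RNA, was also the highest liver library for Cd3e, Cd2, Ccl5 and Nkg7, while the other members were highest in other liver libraries. The share of all genes highest in HFD 2 is not given here, so this does not set those members apart. The part of muscle RNA in these values was not tested.

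**Figure D4:**
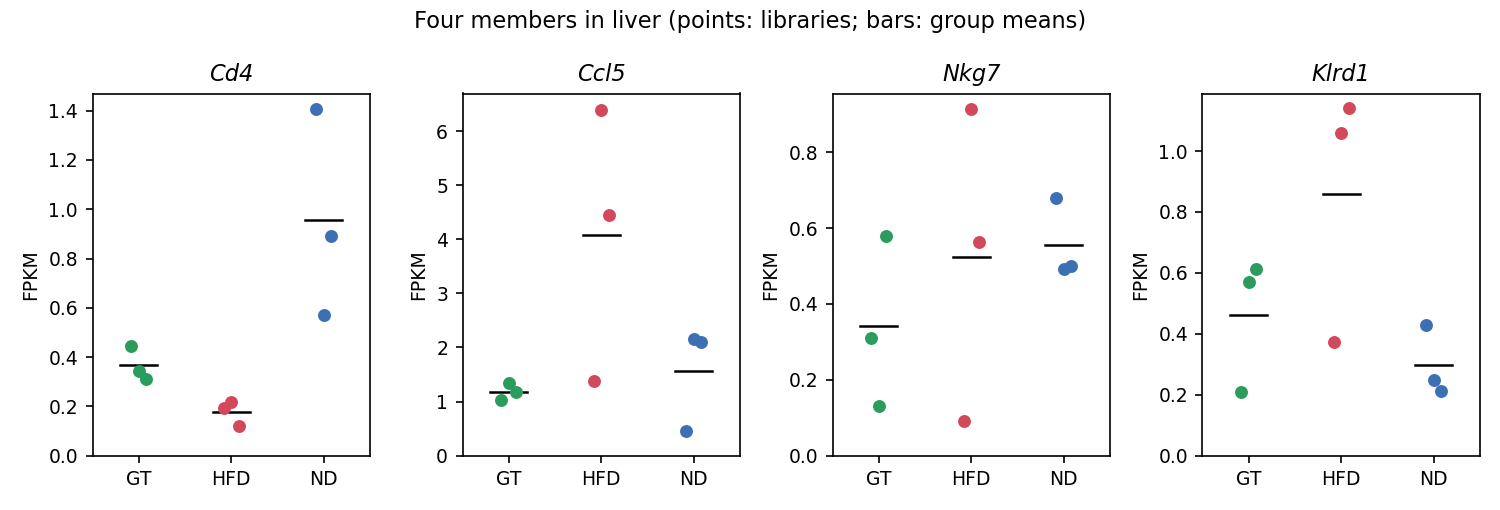
FPKM of Cd4, Ccl5, Nkg7 and Klrd1 in the 3 liver libraries of each diet, each panel with its own axis from 0; points are libraries and bars are group means. Cd4 lies lowest in HFD, between 0.121 and 0.216 FPKM, and Ccl5 lies between 1.38 and 6.40 FPKM in HFD.

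Liver Cd4 was at 0.444, 0.343 and 0.312 FPKM in GT, 0.191, 0.216 and 0.121 FPKM in HFD and 1.41, 0.571 and 0.891 FPKM in ND libraries. The 3 diets did not overlap: every HFD library lay under every GT library and every GT library under every ND library. Of all genes, 15.5% had HFD under ND without overlap, 6.66% had GT above HFD and 11.6% had GT under ND. Cd4 did not pass the filter, since 1 of its 9 liver libraries reached 1 FPKM. In the fit without a filter, where 9.35% of 17276 genes were called for HFD against ND, it was the member called (-0.71 ± 0.14, adjusted p = 0.0218); for GT against ND it was -0.50 ± 0.14 (adjusted p = 0.154) and for GT against HFD 0.22 ± 0.14 (adjusted p = 0.457), where 0.828% and 1.52% of genes were called and no member was. At an unadjusted p under 0.05, Cd4 stood alone for GT against ND and Ccl5 alone for GT against HFD. Adgre1, which Kupffer cells carry, was at 1.53, 0.790 and 0.453 FPKM in GT, 1.58, 0.876 and 1.21 FPKM in HFD and 2.06, 1.66 and 3.00 FPKM in ND liver libraries (-0.54 ± 0.22 for HFD against ND, adjusted p = 0.116). Ptprc ran from 1.48 to 2.88 FPKM over the 9 liver libraries, with a difference of -0.15 ± 0.20 for HFD against ND (adjusted p = 0.625). The 3 Kupffer cell markers summed to 36.5, 22.5 and 32.1 FPKM in GT, 39.8, 50.0 and 46.2 FPKM in HFD and 36.2, 44.3 and 44.3 FPKM in ND libraries, so their HFD libraries were not the lowest. The part of Kupffer cells in the Cd4 values was not tested.

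Klrd1 in liver was at 0.208, 0.569 and 0.612 FPKM in GT, 0.374, 1.06 and 1.14 FPKM in HFD and 0.430, 0.248 and 0.214 FPKM in ND libraries. HFD 2 and HFD 3 lay above all others, and HFD 1 lay under ND 1; without a filter the difference for HFD against ND was 0.49 ± 0.18 (unadjusted p = 0.0244, adjusted p = 0.125). Nkg7 in liver was at 0.311, 0.132 and 0.579 FPKM in GT, 0.0909, 0.914 and 0.564 FPKM in HFD and 0.679, 0.492 and 0.500 FPKM in ND libraries, with overlap between all diets. Of the other T cell genes in liver, 4 of 27 receptor genes and 0 of the cytotoxic genes passed the filter. Themis, a T cell signalling gene, rose by 1.93 ± 0.42 in HFD against ND (adjusted p = 0.0135), with 10.2, 7.14 and 1.55 FPKM in GT, 6.79, 4.76 and 7.53 FPKM in HFD and 1.02, 1.05 and 0.680 FPKM in ND libraries. In adipose tissue it stayed under 1 FPKM in every library. The chemokine Cxcl10 rose by 1.01 ± 0.22 (adjusted p = 0.0134). The IL-2 receptor chain Il2rb, which T and NK cells share, was at 1.17, 0.567 and 1.12 FPKM in GT, 0.402, 0.268 and 0.642 FPKM in HFD and 0.760, 1.04 and 1.38 FPKM in ND libraries (-0.52 ± 0.18 for HFD against ND, adjusted p = 0.0659), so its HFD libraries lay under its ND libraries while those of Ccl5 did not.

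Cd2 and Nkg7 were higher in adipose tissue than in liver on all 3 diets, and the other members differed by diet or were not called. In the fit of 18 libraries, 4 of 5 tested members were called higher in adipose tissue on GT, 2 on HFD and 3 on ND, and none lower. Of 14442 genes, 46.6%, 50.6% and 52.4% were called higher in adipose tissue on these diets, so the members' shares on HFD and ND were near the background. The median difference over all genes was 0.70 on GT, 0.89 on HFD and 0.81 on ND. Cd2 was higher in adipose tissue by 1.30 ± 0.22 on GT (adjusted p = 0.000137), 0.74 ± 0.22 on HFD (adjusted p = 0.00919) and 1.12 ± 0.22 on ND (adjusted p = 0.000609), and Nkg7 by 1.05 ± 0.27, 0.88 ± 0.27 and 0.76 ± 0.27 (adjusted p = 0.00319, 0.00959 and 0.0221). The HFD difference of Cd2 lay below the median of all genes and those on GT and ND above it. That of Nkg7 lay above the median on GT alone, with 0.88 against 0.89 on HFD and 0.76 against 0.81 on ND.

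Ccl5 averaged 10.2 ± 2.65 FPKM in adipose tissue and 1.18 ± 0.157 FPKM in liver on GT, 7.18 ± 0.619 and 4.08 ± 2.53 FPKM on HFD, and 9.51 ± 9.45 and 1.57 ± 0.967 FPKM on ND (SD, n = 3). On HFD the groups were nearest, with 6.53 FPKM in the lowest adipose library and 6.40 FPKM in liver HFD 2. Its tissue difference was called on GT (2.34 ± 0.56, adjusted p = 0.0023) and on ND (1.68 ± 0.56, adjusted p = 0.017) and not on HFD (0.84 ± 0.56, adjusted p = 0.212). Without adipose ND 1 the ND difference was 0.96 ± 0.46 (adjusted p = 0.0693), no longer called. Klrd1 was called on GT (0.77 ± 0.30, adjusted p = 0.0371), and without ND 1 on all 3 diets, at 0.77, 0.66 and 0.81 on GT, HFD and ND. Without ND 1, 4, 3 and 3 of 5 members were called higher on GT, HFD and ND, where 61.2%, 63.7% and 63% of 13626 genes were. Cd4 on ND, which was not tested, lay between 0.466 and 0.664 FPKM in adipose tissue and between 0.571 and 1.41 FPKM in liver, where its mean was the higher. Cd3g was not called on any diet, with 0.30 ± 0.28, 0.16 ± 0.28 and 0.43 ± 0.28 on GT, HFD and ND.

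Among all 10 members, adipose and liver libraries did not overlap for 7 members on GT, 7 on HFD and 4 on ND, always with adipose tissue higher, where 51.4%, 53.5% and 41.3% of genes did so. Without ND 1 it was 5 on ND, against 59.4% of genes. Cd2, Ccl5, Nkg7 and Klrd1 were among them on GT and on HFD, and Cd8a as well. Of the receptor genes, Cd247 was higher in adipose tissue by 1.94 ± 0.20 on GT, 1.66 ± 0.20 on HFD and 1.95 ± 0.20 on ND (adjusted p = 9.81e-07, 4.61e-06 and 1.29e-06). Il7r, Thy1, Fyb, Lcp2, Trac, Il2rb and Cd6 were also called higher on GT and HFD, where 46.6% and 50.6% of all genes were. Themis and Zap70, a kinase at the T cell receptor, were the listed receptor genes called lower in adipose tissue on those diets. Zap70 differed by -1.42 ± 0.47 on GT and -1.67 ± 0.47 on HFD (adjusted p = 0.0168 and 0.00606, limma). On ND it differed by -0.57 ± 0.47 (adjusted p = 0.3, limma), and without ND 1 by -1.37 ± 0.20 (adjusted p = 1.58e-05, limma). Zap70 was at 1.76 to 3.75 FPKM in liver and, outside adipose ND 1 at 5.87 FPKM, at most 0.571 FPKM in adipose tissue.

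**Figure D5:**
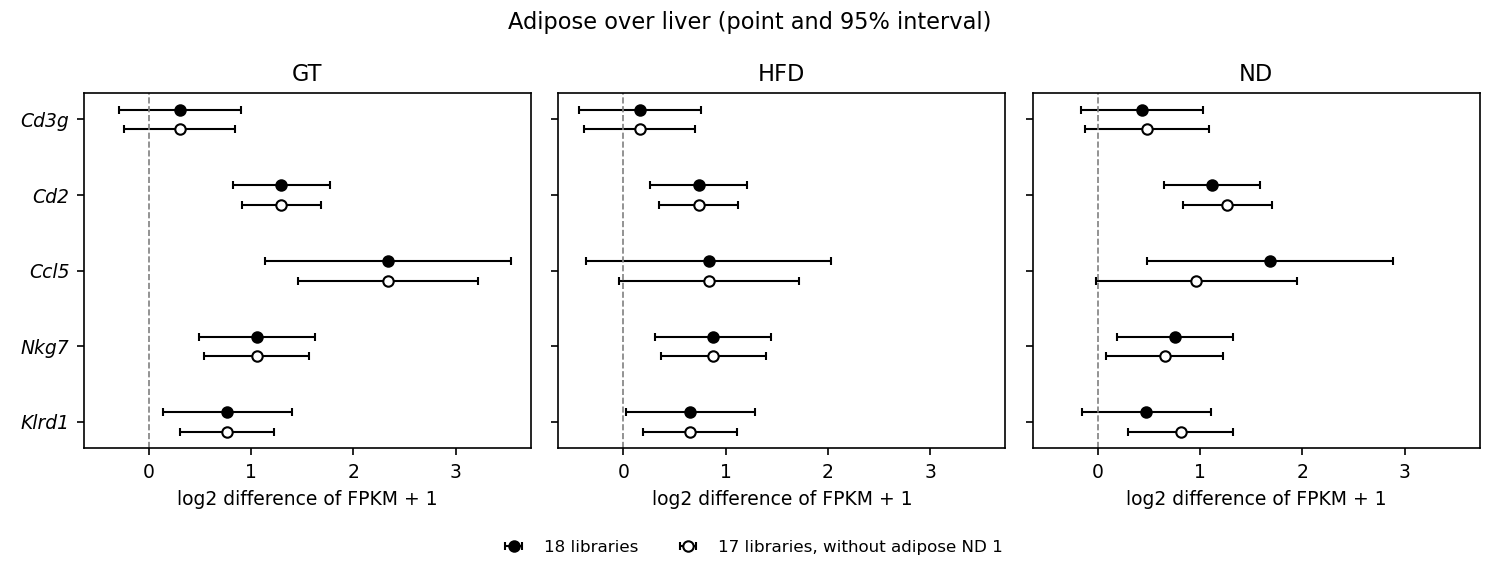
Log2 difference of FPKM + 1, adipose over liver (x axis), of the 5 tested genes on GT, HFD and ND; filled points use 18 libraries, open points 17 without adipose ND 1, and bars are 95% intervals. Intervals of Cd2 and Nkg7 lie above 0 on each diet, and those of Cd3g include 0 on each.

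Whether a diet acted differently in the tissues was tested as a difference of differences. limma called 0 of 5 members for HFD against ND and 0 for GT against HFD, with 0 at an unadjusted p under 0.05 in each, where 9.97% and 0.0208% of 14442 genes were called. Without ND 1 it again called 0 in each, where 24.2% and 4.51% of 13626 genes were called, with Ccl5 and Cd2 at an unadjusted p under 0.05 for GT against HFD. Ccl5 had the largest estimate for GT against HFD, 1.5 ± 0.79 (95% interval -0.19 to 3.20; unadjusted p = 0.0784, adjusted p = 0.821): its mean was 10.2 FPKM in GT and 7.18 FPKM in HFD in adipose tissue, and 1.18 FPKM in GT and 4.08 FPKM in HFD in liver. Without ND 1 it was 1.5 ± 0.58 (unadjusted p = 0.0215, adjusted p = 0.143). For HFD against ND the estimates with ND 1 ran from -0.85 ± 0.79 for Ccl5 to 0.18 ± 0.42 for Klrd1. Without ND 1 they ran from -0.53 ± 0.27 for Cd2 to 0.23 ± 0.36 for Nkg7. Ccl5 was then at -0.13 ± 0.62 and Klrd1 at -0.16 ± 0.32.

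Cd3e and Nkg7 were compared with the protein-coding genes of the fit that are not members, across the 8 adipose libraries other than ND 1. Likeness was the root mean square difference of log2(FPKM + 1), centred on each gene's mean, over 12504 genes. For Cd3e the nearest were Nrbf2, Aplp2, Cast, Eif4e3 and Pdk4, at 0.0932 to 0.101, and for Nkg7 they were Rpl38, Rps28, Sdhaf4, Med30 and Rpl22, at 0.104 to 0.143. The spread of the members themselves about their means was 0.187 for Cd3e and 0.289 for Nkg7, and the median gene stood at 0.355 and 0.418 from them. Cd3e stayed under 1 FPKM in these 8 libraries, where the added 1 understates its changes. Its nearest genes stood between 18.5 and 725 FPKM.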

How the data were processed

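The deposited FPKM table of 23474 rows by 18 libraries was used as the authors made it. Per the submitters' processing notes, the tools included CASAVA 1.8.2, STAR 2.4.0 and Cufflinks 2.1.1; the genome build was not given in the sources used here. Ensembl identifiers were matched to symbols through GENCODE M21 for 22671 rows. Values were tested as log2(FPKM + 1) with limma 3.58.1 in R 4.3.3 (trend and robust settings), on genes at 1 FPKM or more in at least 3 libraries, with Benjamini-Hochberg adjustment over all genes of the fit. Adipose tissue and liver were each fitted over their 3 diets, and all 18 libraries together for the comparisons between tissues. Same-numbered adipose GT and ND libraries deviated together from their group means over the tested genes (r = 0.258, 0.124 and 0.189), so that comparison is also given with the replicate number as a block. This pairing comes from the data, not from the labels, and is not established. For adipose HFD and ND, r was 0.643, 0.483 and 0.095. The fitting code was checked on simulated data. Tables and figures were made with Python 3.11.15, NumPy 2.4.6, pandas 2.3.3 and matplotlib 3.10.9. Since the table holds FPKM and no read counts, no counting interval could be given. The 10 genes are named throughout. Genes of the other lists are named where called, or as the defining members of their list or as values beside a member's result. The members and lists were chosen with earlier results of these data known. Promoter sequences came from RefSeq (GRCm38.p6) and were found for 5 of the 10 genes. Alternatives were another pseudocount, no filter, equal FPKM totals, quantile scaling, a replicate block, fits of 2 diets alone, each library left out in turn and, chosen after seeing the data, leaving out the libraries with testis or muscle RNA. Values of 2 genes of the other lists are not reported here.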

Additional observations from a re-analysis of the deposited data

How the results depend on the processing

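Of 410 recomputed differences of single members, 375 kept their direction and side of the threshold. Among the counts of members called, 1 was called for HFD against ND in adipose tissue without ND 1, ND 3 and HFD 1 (Cd2), against 0 with all libraries. Without ND 1, leaving out each further library gave 0 to 1 called for HFD against ND and 0 to 1 for GT against ND. In liver the count for HFD against ND was 1 with no filter, and leaving out each library gave 0 to 1 for HFD against ND and 0 to 1 for GT against HFD. On HFD, 4 members were called higher in adipose tissue than in liver with equal FPKM totals, against 2. By correlation of deviations from group means, all 3 same-numbered pairs exceeded 0.1 for adipose GT and ND alone. Each other comparison had a pair below 0.1, over a range of -0.301 to 0.643, and its libraries were taken to share only a number. Adipose HFD and ND stood at 0.643, 0.483 and 0.095, so a single value near that limit set them apart. Some libraries of unlike number also exceeded it, such as ND 2 with GT 3 (0.118) and with HFD 3 (0.66). These correlations therefore cannot show which libraries are paired. With the replicate block, 1 member was called for HFD against ND in liver, Ccl5 (0.92 ± 0.25, adjusted p = 0.0431), and the other counts of members did not change. No called difference changed sign. Uncalled differences that did were, for HFD against ND in adipose tissue, Nkg7 (-0.0696 with quantile scaling) and, without the 3 libraries, Nkg7 (-0.21) and Klrd1 (-0.0190). For GT against HFD they were Nkg7 (-0.0096 with pseudocount 0.1, -0.0099 with equal totals) and Klrd1 (0.0444 with quantile scaling). For GT against ND they were Cd3g (0.0429) and Cd2 (0.20) with quantile scaling, Cd2 (0.16) with equal totals, and Nkg7 (-0.19) and Klrd1 (-0.10) without the 3 libraries. The difference of differences of Klrd1 was -0.16 for HFD against ND without ND 1 and -0.0142 for GT against HFD with equal totals. Leaving out each library gave, for HFD against ND, -0.61 to 0.79 for Ccl5 and -0.17 to 0.19 for Nkg7, for GT against HFD -0.15 to 0.25 for Nkg7, and for GT against ND -0.17 to 0.21 for Cd2, -0.18 to 1.22 for Ccl5 and -0.16 to 0.31 for Nkg7. In liver it gave -0.52 to 0.0347 for Ccl5 in GT against ND. The cause was not tested. Counts over all genes moved more: 59 to 3953 for HFD against ND in adipose tissue against 777, 0 to 920 for GT against HFD against 0, and 0 to 2632 for GT against ND against 88. In liver they were 460 to 3367 against 1980, 43 to 1240 against 572, and 49 to 438 against 277. Equal totals moved the median of all genes in HFD against ND to 0.41 against 0.13 in adipose tissue and to -0.20 against -0.02 in liver, where 613 genes were then called higher and 860 lower, against 1268 and 712. They moved the adipose median over liver to 1.05, 1.33 and 0.90 on GT, HFD and ND, against 0.70, 0.89 and 0.81. Read depth, which would limit the low values most, is unknown.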
